A study of Mus musculus with 71 samples.

Results

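The genes examined were Prmt1, Akt1s1, Tbc1d17, Scaf1, Irf3, Bcl2l12 and Rras, 7 neighbors in a gene-dense stretch of mouse chromosome 7, out of 55450 GENCODE genes, of which 13234 had a chromatin loop. Their loops came from H3K27ac HiChIP of 2 mouse SyS tumors. Both tumors expressed human SS18::SSX2 (hSS2) in hindlimb tissue after TATCre was injected at day 8 of life, so the fusion was shared by all the material and there was no tumor without it. TATCre activates the fusion in whichever hindlimb cells it enters, and a whole tumor also holds stromal, vascular and immune cells. The genes were selected on measured values: a loop belonged to a gene when an anchor lay within 2 kb of one of its transcription start sites (TSSs), and the locus was picked because the summed tags of Prmt1 and Akt1s1 were among the largest in the list. Those sums are therefore a description and not a finding. In all, 87 of the 24244 loops and 406 of the 41574 tags touched at least 1 of these genes.

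HiChIP ligates DNA ends that are close together in the nucleus and then captures the fragments that carry a chosen mark. H3K27ac, acetylation of lysine on histone H3, marks active promoters and enhancers, so that contacts between active elements are read out as paired-end tags. The deposited list gives each loop a pair of anchors, a count of tags and an FDR from the loop caller, with both tumors merged. There is no value per tumor, and no test between tumors or conditions could be made. The intervals below cover counting error only. Tags are PCR reads without molecular identifiers, and are not independent molecules. The list runs through the chromosomes in 2 sorted parts, which could not be assigned to tumors, and 394 of the 406 tags of the locus stood in the first. The loop score of a gene is the sum of the tags of its loops.

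The genes differ widely in function. PRMT1 is the main methyltransferase that places asymmetric dimethylarginine on histones and RNA-binding proteins. AKT1S1, also called PRAS40, is an AKT substrate that restrains the mTORC1 kinase complex. TBC1D17 is a GTPase-activating protein for Rab GTPases, and RRAS is a small GTPase of the RAS family that acts in integrin adhesion. IRF3 is the transcription factor that turns on type I interferon genes after it is phosphorylated by TBK1. BCL2L12 is a proline-rich relative of BCL2 that restrains effector caspases. SCAF1 is an SR-related protein that binds the C-terminal domain of RNA polymerase II.

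The 7 genes sat on only 4 promoter anchors, because 6 of them form head-to-head pairs. Akt1s1 (chromosome 7, 44848991 to 44855421, plus strand, mm10) and Tbc1d17 (44834623 to 44849079, minus strand) start 80 bp apart at their closest TSSs. Bcl2l12 (44991222 to 44998712, minus strand) and Irf3 (44997648 to 45002848, plus strand) start 69 bp apart at their closest TSSs. The 5′ ends of these 2 genes as given here lie 1064 bp apart, and the genes overlap. Scaf1 (45002948 to 45016363, minus strand) and Rras (45017961 to 45021647, plus strand) start 1598 bp apart. Prmt1 (44975989 to 44986568, minus strand) had an anchor shared with no other member, but with the antisense transcript Gm15545. The members of each pair had the same anchors and hence the same loops, so that the list cannot tell them apart. From the first to the last 5′ end the genes covered 169.0 kb.

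The anchors show which TSSs lay inside them, though not at which of those TSSs a tag arose. In the first of the list's 2 sorted parts, the Akt1s1/Tbc1d17 anchor (44847766 to 44851132) was 3.37 kb wide and held 10 of the 11 Akt1s1 TSSs and 8 of the 11 Tbc1d17 TSSs. The Prmt1 anchor (44985319 to 44988111) was 2.79 kb wide and held 8 of 12 TSSs. The Bcl2l12/Irf3 anchor (44995587 to 44998817) was 3.23 kb wide and held all 6 Bcl2l12 TSSs and 7 of the 13 Irf3 TSSs. The Scaf1/Rras anchor (45015147 to 45017355) was the narrowest, at 2.21 kb, and held 3 of 6 Scaf1 TSSs. It held none of the 3 Rras TSSs, the nearest of which lay 606 bp beyond its edge. Rras is thus a member through the 2 kb window and not through an anchor on its own start.

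Promoter sequences of the members are given next. They are the 300 bases from 250 before to 50 after a TSS in RefSeq for GRCm38.p6, the assembly that mm10 denotes, printed 5′ to 3′ on the strand of the gene. Capitals mark GGGCGG, the GC box, and CCAAT, the CCAAT box, on either strand.
Akt1s1 (chr7:44850122-44850421, + strand): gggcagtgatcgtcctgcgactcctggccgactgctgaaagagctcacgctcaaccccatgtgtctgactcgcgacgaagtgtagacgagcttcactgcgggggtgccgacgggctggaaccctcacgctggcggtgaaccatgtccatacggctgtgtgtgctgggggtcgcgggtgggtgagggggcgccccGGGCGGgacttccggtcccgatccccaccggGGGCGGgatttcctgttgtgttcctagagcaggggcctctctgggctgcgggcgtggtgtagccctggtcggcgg
Prmt1 (chr7:44986371-44986670, - strand): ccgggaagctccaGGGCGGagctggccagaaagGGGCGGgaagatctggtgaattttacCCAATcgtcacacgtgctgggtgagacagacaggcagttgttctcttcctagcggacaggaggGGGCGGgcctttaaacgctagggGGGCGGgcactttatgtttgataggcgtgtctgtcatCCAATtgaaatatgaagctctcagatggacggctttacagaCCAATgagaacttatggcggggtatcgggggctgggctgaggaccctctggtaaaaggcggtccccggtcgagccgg
Irf3 (chr7:44997398-44997697, + strand): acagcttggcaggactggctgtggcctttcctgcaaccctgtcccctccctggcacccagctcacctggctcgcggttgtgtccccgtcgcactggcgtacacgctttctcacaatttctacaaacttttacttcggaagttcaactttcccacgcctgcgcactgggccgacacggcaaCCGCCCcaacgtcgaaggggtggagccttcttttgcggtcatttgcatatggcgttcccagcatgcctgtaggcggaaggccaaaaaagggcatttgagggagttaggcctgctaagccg
Scaf1 (chr7:45016200-45016499, - strand): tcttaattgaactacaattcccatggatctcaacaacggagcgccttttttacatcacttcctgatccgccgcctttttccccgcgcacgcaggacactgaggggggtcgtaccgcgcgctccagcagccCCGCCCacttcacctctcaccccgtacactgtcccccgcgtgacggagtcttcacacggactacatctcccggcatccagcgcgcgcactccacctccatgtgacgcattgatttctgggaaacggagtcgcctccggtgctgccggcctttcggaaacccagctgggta

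RefSeq promoters were held for 6 of the 7 genes, with none for Tbc1d17. The Akt1s1 window starts at 44850122, inside the gene and downstream of its 5′ end at 44848991. It is thus not the start that pairs with Tbc1d17. GGGCGG was found in the windows of Akt1s1 (2 matches), Prmt1 (4 matches), Irf3, Bcl2l12 and Scaf1 (1 match each) and in none of the 3 Rras windows, against 35.7% of the 32851 promoters of the same length. CCAAT was found 3 times in the Prmt1 window and in 2 of the 3 Rras windows, against 37.4% of all promoters. Those 2 Rras windows start at 45019220 and 45019347, farther from the anchor edge at 45017355 than the Rras window without CCAAT, at 45017692. The letters TATAAA were found in the Bcl2l12 window alone, against 13.6%. The E-box letters CACGTG were found in the Prmt1 window alone, against 7.15%. The Bcl2l12 and Irf3 windows share 168 bases read in opposite directions, and their GGGCGG match is the same one. The Akt1s1 window was 67.7% GC and that of Prmt1 57.7%, against a median of 52.7% over all promoters.

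Prmt1 had 25 loops and a loop score of 163 tags (exact Poisson 95% interval 138.9 to 190.0). Akt1s1 and Tbc1d17 had 33 loops and 156 tags (132.5 to 182.5). Bcl2l12 and Irf3 had 16 loops and 100 tags (81.4 to 121.6), and Scaf1 and Rras had 17 loops and 77 tags (60.8 to 96.2). In this order, neither Prmt1 and Akt1s1 nor Irf3 and Scaf1 were separated by more than counting error. Akt1s1 lay above Irf3 with intervals that did not overlap. The sums of Prmt1 and Akt1s1 chose the locus, so that their place above the other members is a description. Several loops count for more than 1 gene, so that the scores are not independent.

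Among looped genes, Prmt1 ranked 10 and Akt1s1 and Tbc1d17 ranked 12. Hoxc12, with 164 tags, stood just above Prmt1, and no other value lay between Prmt1 and Akt1s1. The next value below Akt1s1 was 141 tags, at Bahcc1, 2900052L18Rik and Gm11772. Scaf1 and Rras ranked 77, with 75 tags as the next value below them. Of all looped genes, 0.627% had a loop score of at least 77 tags, a threshold that is itself that of the lowest member.

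**Figure D1:**
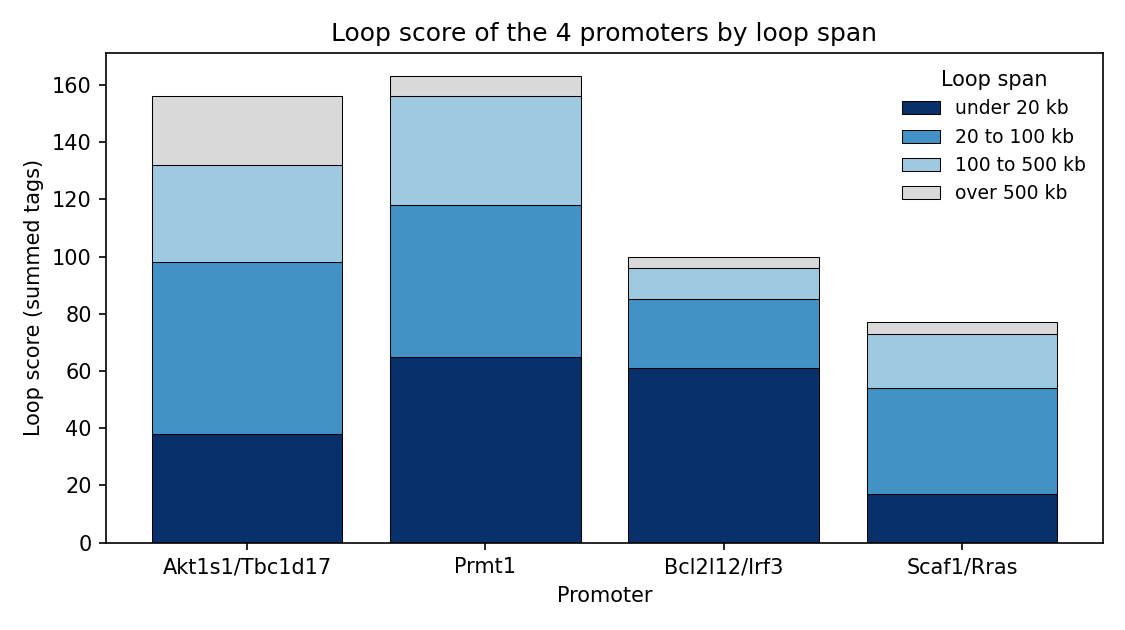
Loop score (summed tags, vertical axis) of each of the 4 promoters, divided by the span of the loop. Prmt1 and Akt1s1/Tbc1d17 reached 163 and 156 tags, and loops under 20 kb gave 61 of the 100 tags of Bcl2l12/Irf3.

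The similar scores of Prmt1 and Akt1s1 were built from different loops. Loops spanning under 100 kb gave 118 of the 163 tags at Prmt1 (72.4%, Wilson 95% interval 65.1 to 78.7) and 98 of the 156 tags at Akt1s1/Tbc1d17 (62.8%, 55.0 to 70.0). Loops over 500 kb gave 7 tags at Prmt1 (4.29%, 2.10 to 8.60) and 24 tags at Akt1s1/Tbc1d17 (15.4%, 10.6 to 21.9). These intervals did not overlap, but they treat tags as independent, which they are not. Both sums also chose the locus, so that the difference is a description and was not tested. Of the 33 loops of Akt1s1/Tbc1d17, 17 had a single tag, and its median loop spanned 538.4 kb against 170.0 kb for Prmt1. Bcl2l12/Irf3 was the most local, with 85 of its 100 tags under 100 kb (85%, 76.7 to 90.7). Scaf1/Rras lay between, with 54 of 77 tags (70.1%, 59.2 to 79.2).

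The strongest contact of the locus joined Prmt1 to Bcl2l12/Irf3, across 10.5 kb, with 44 tags (exact Poisson 95% interval 32.0 to 59.1) and an FDR that the list gives as 0. It ranked 8 among all loops by tags. Prmt1 to Scaf1/Rras, across 29.5 kb, had 20 tags (12.2 to 30.9) and Bcl2l12/Irf3 to Scaf1/Rras, across 19.05 kb, had 17 tags (9.90 to 27.2). The last 2 values did not differ beyond counting error. These 3 promoters, within 30 kb of each other, were thus all joined pairwise.

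Akt1s1/Tbc1d17 stands apart from that trio. It was joined to Prmt1 across 137.3 kb with 9 tags (4.12 to 17.1; FDR 0.00327), and no loop to Bcl2l12/Irf3 or to Scaf1/Rras was listed. The list holds only loops past the caller's threshold, so that an absent loop is not a count of 0. Together the 4 loops between members held 90 of the 406 tags of the locus (22.2%, Wilson 95% interval 18.4 to 26.5), and the other 83 loops led to other genes or to anchors without a TSS.

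**Figure D2:**
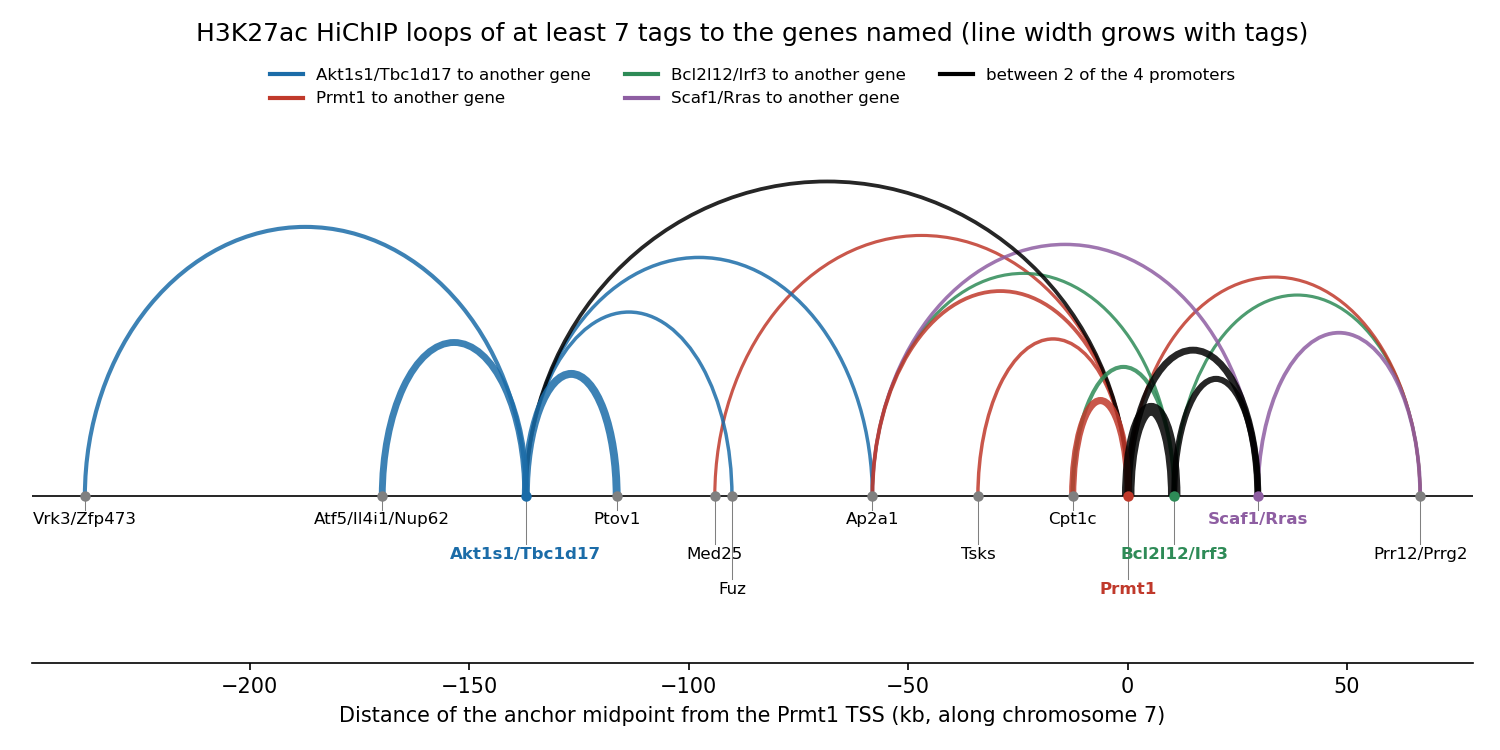
Loops with at least 7 tags between the 4 promoters and the genes named, drawn as arcs between anchor midpoints against the distance from the Prmt1 TSS (kb). Line width grows with the tags, arc height only follows the span, and color gives the promoter (black for loops between 2 of the 4). Prmt1, Bcl2l12/Irf3 and Scaf1/Rras are tied by 44, 20 and 17 tags, and Akt1s1/Tbc1d17 reaches them by a single loop of 9 tags.

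Akt1s1/Tbc1d17 had strong loops to its own neighbors. Ptov1 was joined across 20.7 kb with 24 tags (exact Poisson 95% interval 15.4 to 35.7; FDR 1.30e-10). The shared anchor of Atf5, a stress-responsive bZIP transcription factor, Nup62, a nuclear pore protein, and Il4i1, an amino acid oxidase, was joined across 32.7 kb with 20 tags (12.2 to 30.9; FDR 3.10e-08). The anchor of Vrk3 and the zinc finger gene Zfp473 was joined across 100.5 kb with 10 tags (4.8 to 18.4; FDR 0.00113) and was linked to none of the other 3 promoters.

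On the Prmt1 side, the leading partner was the anchor of Cpt1c, the carnitine palmitoyltransferase isoform of brain, and of the antisense transcript 6530437J22Rik. It was joined to Prmt1 across 12.7 kb with 21 tags (13 to 32.1; FDR 1.14e-07) and to Bcl2l12/Irf3 across 23.1 kb with 10 tags (4.8 to 18.4; FDR 0.0156). Prmt1 also reached Tsks, with 8 tags, and Med25, a Mediator subunit, with 9 tags over both parts of the list, and neither was linked to another of the 4 promoters.

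Of the 87 loops, 6 had at least 20 tags (6.90%, Wilson 95% interval 3.20 to 14.2), where 0.313% of the whole list did. An FDR under 0.001 was held by 17 of the 87 (19.5%, 12.6 to 29.1), against 8.06% of the list. Both measures rest on the tags that chose the locus and are given as a description. A single tag was held by 39 of the 87 loops (44.8%, 34.8 to 55.3), against 78.0% of the list.

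Set against loops of the same part and a span within a factor of 1.25, the strong contacts stood high but not alone. The Prmt1 to Bcl2l12/Irf3 loop had 44 tags where 110 such loops had a median of 13, and 2 of them had at least as many. The Bcl2l12/Irf3 to Scaf1/Rras loop, with 17 tags, was reached by 22 of 127 such loops. The longer Akt1s1/Tbc1d17 to Prmt1 loop, with 9 tags, was reached by 20 of 138 such loops, whose median was 5. The Cpt1c to Bcl2l12/Irf3 loop, with 10 tags, lay under the median of 11 of the 136 loops of like span. In the first part, the 4 locus loops under 20 kb had a median of 29.5 tags against 12 for the 335 others, while the 14 from 20 to 100 kb had a median of 8 against 9 for the 459 others. Of those 14, Akt1s1/Tbc1d17 to Ptov1 (24 tags), Akt1s1/Tbc1d17 to Atf5/Il4i1/Nup62 (20 tags) and Prmt1 to Scaf1/Rras (20 tags) had more tags than 93.4%, 95.6% and 91.0% of the loops of like span. Tags chose the locus, and these places are a description.

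**Figure D3:**
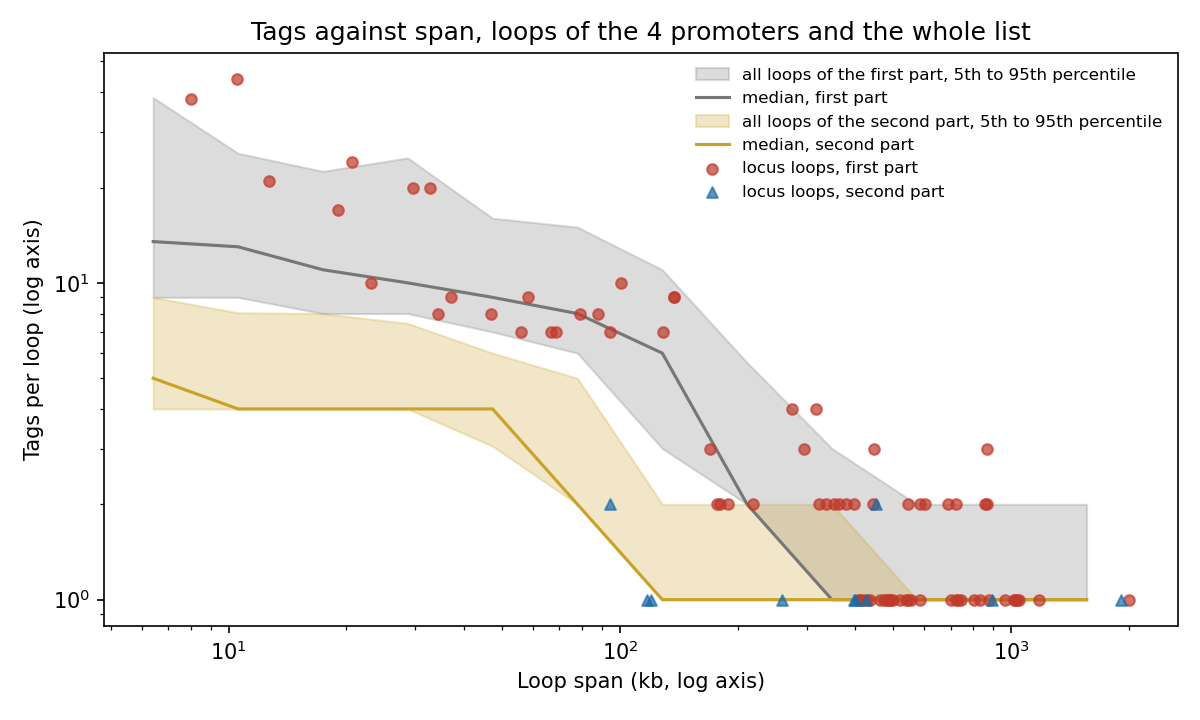
Tags per loop against loop span, both on log axes, for the 87 loops of the 4 promoters (red circles, first part of the list; blue triangles, second part). Lines and bands give the median and the 5th to 95th percentile of all loops in each part. The loop of 44 tags stands high for its span, and most loops from 20 to 100 kb lie near the median.

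Partners were then merged into regions where their anchors overlapped. The 4 promoters reached 46 regions outside themselves, 27 at higher and 19 at lower coordinates than Prmt1. The lower side held 214 tags and the higher side 102. Of the 46, 23 were joined to 1 of the 4 promoters, 13 to 2, 7 to 3 and 3 to all 4. A single tag was all that 13 of the regions had.

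The region of Ap2a1, which encodes an alpha subunit of the endocytic clathrin adaptor, was the most evenly shared. It lies 58.1 kb below the Prmt1 TSS, between Akt1s1 and Prmt1. It had 8 tags with Akt1s1/Tbc1d17, 9 with Prmt1, 7 with Bcl2l12/Irf3 and 8 with Scaf1/Rras, a range that counting error alone spans. In the first part no loop from 20 to 100 kb was listed with fewer than 6 tags, so that weaker contacts would be missing. The counts of Ap2a1 lie near that floor, and their evenness was not tested. The other regions joined to all 4 promoters were Snrnp70 (1, 1, 1 and 2 tags in the same order) and Gys1/Ruvbl2 (1, 3, 1 and 1 tags), 409.1 and 447.0 kb above Prmt1. Snrnp70 encodes a U1 spliceosome protein, Gys1 the muscle glycogen synthase and Ruvbl2 an ATPase of chromatin remodelers. The Prr12/Prrg2 region, 66.7 kb above Prmt1, was shared by Prmt1 (7 tags), Bcl2l12/Irf3 (7 tags) and Scaf1/Rras (9 tags) and had no listed loop to Akt1s1/Tbc1d17.

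**Figure D4:**
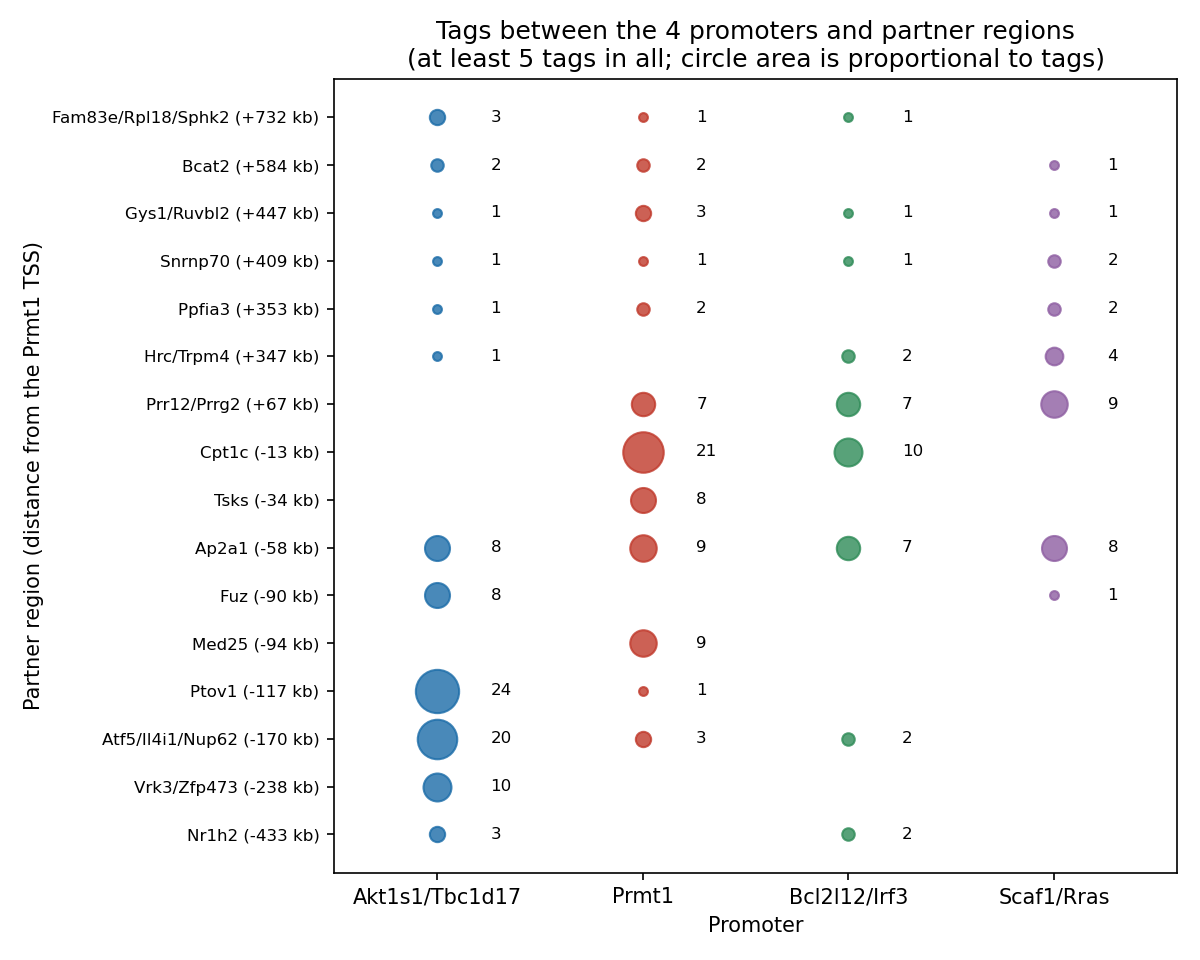
Tags (number and circle area) between each of the 4 promoters (columns) and 16 partner regions with at least 5 tags (rows, with the distance from the Prmt1 TSS, negative towards lower coordinates). Ap2a1 has 7 to 9 tags with every promoter, near the lowest count of 6 listed from 20 to 100 kb in the first part. Ptov1 and Atf5/Il4i1/Nup62 have 24 and 20 tags with Akt1s1/Tbc1d17 and at most 3 with any other.

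The direction of the loops depended on whether the contacts among the 4 promoters were counted. With all loops, the share of tags towards lower coordinates was 28.2% at Akt1s1/Tbc1d17 (Wilson 95% interval 21.7 to 35.7), 42.9% at Prmt1 (35.6 to 50.6), 65% at Bcl2l12/Irf3 (55.3 to 73.6) and 61.0% at Scaf1/Rras (49.9 to 71.2). Without the loops among the 4 promoters, Akt1s1/Tbc1d17 sent 44 of 147 tags that way (29.9%, 23.1 to 37.8) and Prmt1 61 of 90 (67.8%, 57.6 to 76.5). Bcl2l12/Irf3 then sent 21 of 39 (53.8%, 38.6 to 68.4) and Scaf1/Rras 10 of 40 (25%, 14.2 to 40.2). At Scaf1/Rras the interval with all loops included an equal split. Its partners Prmt1 and Bcl2l12/Irf3 both lie at lower coordinates, so that leaving these loops out could only lower its share.

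By shared tags, the genes most like the locus were the transcripts that lie on its own anchors. All 163 tags of Gm15545 and all 156 tags of the microRNA gene Mir707 were tags of Prmt1 and of Akt1s1/Tbc1d17, respectively. Ap2a1 shared 32 of 94 tags (6.84% of either), and Cpt1c and 6530437J22Rik shared 31 of 51 tags (7.28% of either). These are shares of the same tags and hold no further measurement.

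Nearly every distal anchor was itself at a promoter. Of the 54 distinct anchors at the far end of the loops, 52 lay within 2 kb of a TSS of another gene (96.3%, Wilson 95% interval 87.5 to 99.0), against 78.5% (77.9 to 79.2) of 15449 distal anchors of all looped promoters. In this respect the locus resembled other gene-dense stretches. Its members had 55 to 62 other protein-coding genes within 500 kb, where the median protein-coding gene had 15. The 620 other protein-coding genes with at least 55 such neighbors had 725 of 758 distal anchors near a TSS (95.6%, 93.9 to 96.9). The 9 looped HoxC genes, whose loops held 818 tags, had 41 of 49 (83.7%, 71.0 to 91.5).

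The distal anchors without any TSS within 2 kb were 2, both weakly joined. One (45192759 to 45194888) was linked to Scaf1/Rras by 2 tags across 177.6 kb with an FDR of 0.0448. The other (45800140 to 45802063) was linked to Bcl2l12/Irf3 by 1 tag across 803.9 kb with an FDR of 0.0262. Prmt1 and Akt1s1/Tbc1d17 had none. The contacts listed here are therefore almost all between promoters, counting TSSs of all gene types, within the limits of what the caller listed.

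Short loops took a larger share of tags here than at equally surrounded genes. Loops under 100 kb held 274 of the 406 tags of the locus (67.5%, 62.8 to 71.9), against 37.3% (35.7 to 38.9) at the 620 equally surrounded genes and 28.8% (28.4 to 29.3) in the whole list. The HoxC genes had 73.96% (70.8 to 76.9). Tags are part of the rule that chose the locus, so that this difference has no test. Of the 627 protein-coding genes with at least 55 protein-coding neighbors, members included, 26 reached 77 tags (4.15%), against 63 of all 21951 protein-coding genes (0.287%). Their median loop score was 1 tag and their upper quartile 17, against 0 and 3 over all protein-coding genes.

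Between 44747977 and 45125681, the 377.7 kb that holds the stronger partners, the first part of the list had 18 anchors, all of them within 2 kb of a TSS. Of the 153 possible pairs of these anchors, 41 were listed as loops (26.8%). Pairs with at least 1 of the 4 promoters were listed in 25 of 62 cases (40.3%), and pairs without them in 16 of 91 (17.6%). In the second part 3 of 54 pairs with them (5.56%) and 7 of 66 without them (10.6%) were listed, counts too small to give an order. The locus was chosen for its tags, and the contrast in the first part is only a description. Outside the 4 promoters, the strongest loop of the window joined Ptov1 to Med25 with 14 tags.

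The contacts of the locus came almost wholly from one side of the list. Nothing in the list says which tumor or which step gave each of its 2 sorted parts. The first part gave 394 of the 406 tags of the locus and the second 12 (2.96%, Wilson 95% interval 1.70 to 5.09), although the second holds 31.1% of the tags of the whole list. The share of the second part was 15.8% (15.2 to 16.47) over all loops under 100 kb, 21.6% (19.97 to 23.3) over the rest of chromosome 7 and 20.2% (18.9 to 21.5) over the equally dense genes. It was 8.08% (4.15 to 15.1) over the other loops of the 377.7 kb window, an interval that overlaps that of the locus.

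By gene, Prmt1 had 159 tags in the first part and 4 in the second. Akt1s1 and Tbc1d17 had 154 and 2, Bcl2l12 and Irf3 had 99 and 1, and Scaf1 and Rras had 72 and 5. Prmt1 ranked 7 of 9892 looped genes in the first part and 1786 of 10108 in the second. The high scores of the locus thus rest on the first part.

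None of the loops among the 4 promoters was listed in the second part, although it held an anchor at each of them. That part lists no loop under 20 kb with fewer than 4 tags, so that weaker contacts would be missing from it. Its 10 loops at the locus included Med25 to Prmt1 (2 tags, across 94.6 kb), the only one whose regions were also joined in the first part, by 7 tags. Bax, which encodes the pro-apoptotic pore-forming member of the BCL2 family, was joined to Scaf1/Rras by 2 tags across 450.1 kb (FDR 0.000359).

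The anchors differed in the number of cutting sites. HiChIP tags arise at MboI sites (GATC), and the first-part anchors of Prmt1, Akt1s1/Tbc1d17, Bcl2l12/Irf3 and Scaf1/Rras held 11, 8, 6 and 4 of them, against a median of 5 over 16864 anchors. Prmt1 thus had more sites than 97.0% of all anchors, and Scaf1/Rras, the narrowest of the 4, fewer than the median. Per kb of anchor the values in the same order were 3.94, 2.38, 1.86 and 1.81, against a median of 1.77. By this measure Scaf1/Rras was not below the median. The GC content ranged from 52.6% (Scaf1/Rras) to 56.7% (Akt1s1/Tbc1d17), against a median of 51.3%. The part of these features in the loop scores was not tested.

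The relatives and pathway partners of these genes mostly had far lower loop scores, with Bbc3 as the nearest to the members. Among the other arginine methyltransferases, 6 of 8 had a loop, with a median of 4 tags and the largest value at Carm1, a coactivator of nuclear receptors (16 tags), and Prmt3 and Prmt8 had none. Among mTORC1 and its other regulators, 10 of 11 had a loop, with a median of 9 tags. Tsc2, which restrains the RHEB GTPase upstream of mTORC1, had the most (24 tags) and Deptor had none. In the IRF3 pathway 9 of the other 14 genes had a loop, with a median of 1 tag. Mavs, the mitochondrial adaptor of RNA sensing, had 27 tags, and Irf1, Irf4, Irf5, Irf8 and Ikbke had no loop.

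In the BCL2 family, 9 of the other 10 genes had a loop, with a median of 6.50 tags, and Bcl2 had none. The pro-apoptotic Bbc3 had 70 tags, which lies within the counting interval of the 77 tags of Scaf1. Bax had 48 tags, 2 of them shared with Scaf1/Rras. In the RAS family 4 of the other 5 genes had a loop, with at most 3 tags (Mras), and Nras had none. All 3 other SCAF genes had loops, with at most 10 tags (Scaf4), and all 5 genes related to TBC1D17 had loops, with at most 25 tags (Tbc1d16). Over all protein-coding genes, 45.8% had a loop and the median loop score was 0. These lists stand as a description, since the members were chosen for high scores.

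Markers of the tumor and of other cell types were read in the same list. Over all protein-coding genes 45.8% had a loop, and the few markers of each type were not tested against that share. The synovial sarcoma markers had loops at 4 of 6 genes. Sox2, a transcription factor gene, had 39 tags, Tle1 had 4, Zic1 had 2 and Epcam had 1, and Nnat and Penk had none. No loop was listed at any of the 4 macrophage, 4 skeletal muscle and 3 T cell markers. Of the 3 endothelial markers only Cdh5 had loops, with 3 tags, all in the second part. A loop score is not an expression level, and fewer cells of a type and fewer contacts per cell cannot be told apart in a whole tumor.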

How the data were processed

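H3K27ac HiChIP was performed by the authors on 2 hSS2 SyS tumors. Chromatin was cut with MboI, and read pairs were mapped to mm10 with HiC-Pro. Loops were called with hichipper, and the methods select an FDR under 0.05, while a legend has them called in Mango at an FDR under 0.01 for the 2 tumors and then merged. The list used here holds 20551 loops with an FDR of 0.01 or more, 57 of them at the locus. For each loop the authors deposited a raw count of paired-end tags and an FDR, a p-value that their caller corrected for the number of pairs tested. How counts were combined in the merge is not given in the sources used here. The series' ChIP-seq samples were not used here.

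Anchors were read as 1-based positions and joined to GENCODE vM21 TSSs within 2 kb. Span is the distance between anchor midpoints. The 24244 loops held 41574 tags in all, most of them with 1 tag, which limits each value. Shares have Wilson and counts exact Poisson 95% intervals. No test was made, as there is 1 merged value per loop.

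The members, the gene lists and the alternatives were chosen with earlier results of these data known. The named genes were the members, the genes at the far ends of their 10 loops with most tags, the 5 other genes sharing most tags, and, of each list, the gene with the largest loop score and those without a loop. Other genes were named after their values were seen. Some partner genes are not reported here and were left out of the maps of partners, but their loops stayed in all sums. Cgas was read under its older symbol Mb21d1. The assignment was tested on simulated data: all 300 planted loop scores, from 896 loops, were recovered. Alternatives were other promoter windows and TSS sets, FDR, tag and span limits, each part of the list, each anchor pair once, and numbers of loops. Promoter sequences and the GRCm38.p6 genome came from RefSeq. Tables were made with pandas 2.3.3 and numpy 2.4.6 under Python 3.11.15, intervals with scipy 1.17.1 and plots with matplotlib 3.10.9.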

Additional observations from a re-analysis of the deposited data

How the results depend on the processing

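The 406 tags and 87 loops of the locus were the same with TSSs of protein-coding genes or of RefSeq transcripts, with a 1 kb window and with each anchor pair once. The share of distal anchors near a TSS of another gene was 90.7% with either of these TSS sets. It was 92.6% with the 1 kb window. An FDR under 0.001 left 211 tags in 17 loops, of which 38.4% joined members, and 100% of distal anchors were near a TSS. At least 2 tags left 48 loops with a median span of 173.8 kb. At least 4 tags left 24 loops with a median span of 57.2 kb, 28.6% of tags between members, and 100% of distal anchors near a TSS. Without loops under 20 kb, 10.1% of tags joined members. With a 5 kb window this share was 37.6%. The Cpt1c anchor, 3.09 kb from a Prmt1 TSS, and another anchor that is not reported here then also count as members' anchors. The second part alone held 12 tags in 10 loops, with 0% joining members and 100% of distal anchors near a TSS. The median span was otherwise within 1.5 times of its main value of 408.9 kb.

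Loop scores stayed within 1.5 times of the main value for all 7 genes under 9 alternatives. Under an FDR below 0.001 they ranged from 45 tags (Scaf1 and Rras) to 98 (Akt1s1 and Tbc1d17), with Prmt1 at 88. Without loops under 20 kb, Prmt1 had 98 tags, and Bcl2l12 and Irf3 had 39. In the second part alone they ranged from 1 to 5 tags. By number of loops, Akt1s1 and Tbc1d17 (33) stood above Prmt1 (25). No paired analysis was possible because the list merges both tumors and no test was made.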

Other observations

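Some neighbors of the 4 promoters were also joined to one another. In the 377.7 kb window, 23 loops with 99 tags in all did not touch the 4 promoters. Apart from Ptov1 to Med25 (14 tags, across 22.4 kb), Ap2a1 was joined to Cpt1c with 10 tags, to Tsks with 9, and to Med25 and to the planar polarity gene Fuz with 8 each.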
